A study of Mus musculus with 4 samples.

Results

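The genes described here are 43 mouse genes that cells induce in response to type I interferon, measured in CD8+ T cells of the BM after SCT. They were taken from a list of gene symbols, and all 43 were found among the 17561 genes of the count table. By the role of their products they are 13 antiviral effectors, 5 genes of the oligoadenylate synthetase (OAS) family, and 4 transcription factors and feedback genes. Another 6 were grouped as sensors of nucleic acid, most of which belong to the Ifi200 family of DNA-binding proteins. A further 5 act through ubiquitin or ADP-ribosylation, 3 encode a chemokine or Schlafen proteins, and 7 were kept as others. Cell clusters are those of the authors, who made them from the same expression values, so a difference between clusters is given as a description with no test.

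CD8+ T cells were sorted from the BM of mice on a C57BL/6 background, WT or CRBN transgenic, 4 weeks after transplantation of 10000000 BM cells, with T cells whose number the labels and the study give differently, from donors matched in genotype, and the mice were adult females. The CRBN transgene encodes a modified cereblon that lets lenalidomide act in mouse cells, and recipients carried a transplanted myeloma. The 4 groups received isotype control (cIg) with vehicle, αTIGIT with vehicle, isotype control with lenalidomide, or αTIGIT with lenalidomide, with antibody from the day of transplantation and lenalidomide from day 14 until harvest on day 28. Each group was 1 library from 5 pooled mice, so the spread between mice is not in the data.

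Type I interferons, which are interferon alpha and interferon beta, bind a receptor of the subunits IFNAR1 and IFNAR2 on nearly every cell. The kinases JAK1 and TYK2 then pass the signal on to the complex ISGF3, which holds STAT2 and IRF9 and binds a promoter sequence called the interferon-stimulated response element (ISRE). The induced proteins block steps of viral infection, sense nucleic acid or end the signal, and in CD8+ T cells type I interferon is known as a signal that acts together with antigen and costimulation.

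The promoter of a member was taken as the window from 250 bases before to 50 bases after the RefSeq transcription start (build GRCm38.p6), which was found for 34 of the 43 members. Mx1, Oas2, Usp18, Ifi27l2a, Rtp4, Zbp1, Dhx58, Parp9 and Parp14 had none. Windows were searched for the letters GAAA, any 2 bases and GAAA again on either strand, read as letters of the ISRE, and binding was not measured. Shown here are the 250 bases before the start of 4 members. They had the greatest ratio of GzmB+ Teff to all other cells among those whose window holds the letters. The 10 bases of a match are in capitals (they read TTTC, 2 bases and TTTC where the match is on the other strand). The last sequence is that of Epsti1, the member with the smallest ratio, whose window holds no such letters. Positions are Rsad2 chr12:26456453-26456702 on the minus strand, Ifit3b chr19:34607707-34607956, Ifit1 chr19:34640639-34640888 and Ifit3 chr19:34583279-34583528 on the plus strand, and Epsti1 chr14:77903989-77904238 on the plus strand, each written 5′ to 3′ in the direction of the gene.
Rsad2: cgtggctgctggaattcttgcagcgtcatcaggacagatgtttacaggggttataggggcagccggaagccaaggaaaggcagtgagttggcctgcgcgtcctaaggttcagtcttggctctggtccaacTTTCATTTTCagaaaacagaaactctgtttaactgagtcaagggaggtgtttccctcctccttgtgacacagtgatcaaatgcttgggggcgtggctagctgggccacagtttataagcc
Ifit3b: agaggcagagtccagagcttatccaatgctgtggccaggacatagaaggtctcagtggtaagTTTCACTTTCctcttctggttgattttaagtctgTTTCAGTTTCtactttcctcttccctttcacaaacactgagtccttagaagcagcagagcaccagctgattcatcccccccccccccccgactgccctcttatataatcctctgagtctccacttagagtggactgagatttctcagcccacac
Ifit1: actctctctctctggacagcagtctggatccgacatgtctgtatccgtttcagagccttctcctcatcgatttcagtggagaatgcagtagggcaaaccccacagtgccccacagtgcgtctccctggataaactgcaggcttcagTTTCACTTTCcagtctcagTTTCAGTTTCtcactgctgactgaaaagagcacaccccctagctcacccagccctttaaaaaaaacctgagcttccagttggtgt
Ifit3: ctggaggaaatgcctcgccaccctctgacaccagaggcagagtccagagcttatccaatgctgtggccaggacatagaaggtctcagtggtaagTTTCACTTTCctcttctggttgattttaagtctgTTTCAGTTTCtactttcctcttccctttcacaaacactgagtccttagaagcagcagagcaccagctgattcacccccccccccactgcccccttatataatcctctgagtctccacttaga
Epsti1: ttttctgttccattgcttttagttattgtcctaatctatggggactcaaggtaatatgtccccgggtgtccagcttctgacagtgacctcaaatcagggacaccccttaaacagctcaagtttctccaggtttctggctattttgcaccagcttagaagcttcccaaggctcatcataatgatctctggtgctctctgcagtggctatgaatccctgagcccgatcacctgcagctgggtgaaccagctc

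The 2 spaced GAAA blocks occurred in the windows of 18 of the 34 members (52.9%), against 489 of 12439 genes of the count table with a window (3.93%) and 3.44% of all 32851 windows. The 27 matches in member windows started at a median of -78 bases from the transcription start, and 19 of them lay from -150 to -1. Isg15, which encodes a ubiquitin-like protein, had 3 overlapping matches, the first starting at -78 and the last at -66. A longer run of 3 GAAA blocks, each parted by 2 bases, was found in 3 of the 34 members (8.82%), against 0.201% of genes with a window. The median log2 ratio of GzmB+ Teff to all other cells was 2.54 in the 18 members with the spaced blocks, 2.03 in the 16 members without and 2.53 in the 9 with no window, so the members overlapped widely between these groups. A match is a description of letters and not a bound site.

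The count table held 11754 cells and 106039690 UMIs, 15556967 to 38440687 per library, and a UMI stands for 1 captured RNA molecule. Libraries are numbered 1 to 4 with no treatment named, so no value was assigned to a treatment, and values are given over all libraries and for each. Levels are UMIs of a gene or of all members per 1000000 UMIs of the same cells (CPM), with 95% Poisson intervals, or conditional binomial intervals for ratios, which cover counting error only. The 4 libraries shared 56 cell barcodes, held by 112 cells, and leaving these cells out, a choice made after seeing the data, left the summed log2 ratio of GzmB+ Teff to all other cells at 2.02. Cd3e, Cd3g, Cd3d, Cd8a and Trac were present in all 8 clusters. In Tcm, Cd8b1 was at 217 CPM against 1165 CPM in Tn, and Klrb1c, which encodes the NK receptor NK1.1, at 242 against 10.5 CPM.

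The members were summed first, to show where in the CD8+ T cell compartment the interferon response lay. GzmB+ Teff, 732 of the 11754 cells, had a summed level of 12166 CPM (12081 to 12251), and the libraries gave 12813, 11952, 12458 and 11755 CPM. Tn were at 2412 CPM (libraries 2378, 2455, 2361 and 2449.9) and Tcm at 2343 CPM (libraries 2281, 2489, 2520.1 and 2297). In every library GzmB+ Teff were therefore far above the naive and memory cells, and no other cluster came near them. TIGIT+ Teff stood at 3853, transitory Teff at 3664, GzmA+ Tex at 3641, TIM-3+ Tex at 3132 and cycling cells at 3127 CPM. The highest value of these in a single library was 4729 CPM, in TIGIT+ Teff of library 3. Their order differed between libraries. GzmA+ Tex were the highest of them in libraries 1 and 4 (3578 and 3751 CPM) and transitory Teff in library 2 (3677 CPM). The log2 ratio of GzmB+ Teff to all other cells was 2.02 (2.01 to 2.03), and 2.13, 2.01, 1.87 and 2.02 in libraries 1 to 4. Member UMIs made up 1.22% of all UMIs in GzmB+ Teff and 0.300% in all other cells.

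**Figure D1:**
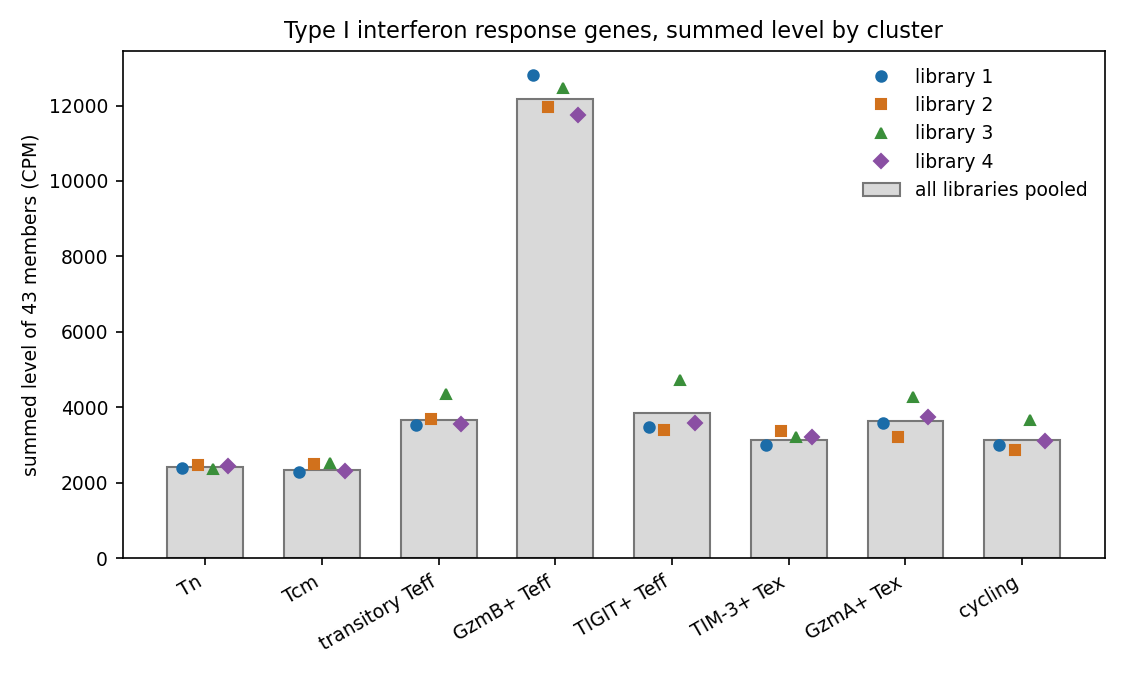
Summed level of the 43 members in CPM (y axis, from 0) in each of 8 clusters (x axis), with bars for all libraries pooled and points for libraries 1 to 4. GzmB+ Teff stand at 12166 CPM, and the points of every other cluster lie between 2281 and 4729 CPM.

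The members were next taken one by one. A member was counted as higher in GzmB+ Teff when it was at least 2-fold above all other cells in each of the 4 libraries with 10 CPM added to both sides. This was so for 40 of 43 members, against 0.473% of all 17561 genes, and for 36 of the 38 members with at least 10 CPM over all cells, against 0.96% of 7604 such genes. Without a size limit all 43 were higher in each library, against 4.51% of all genes. The median log2 ratio with 10 CPM added was 1.97 over the members and -0.03 over all genes. Every member had its highest pooled level in GzmB+ Teff, against 4.93% of all genes, and 42 did so in each library, against 1.01%. The exception was Parp14, which was highest in TIGIT+ Teff in library 3. Ranked by the ratio with 10 CPM added, the first 10 of all genes were members, as were 19 of the first 20 and 30 of the first 50. Since clusters were made from these values and the list was drawn up with results for these cells known, these counts describe the cluster and do not test it.

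All 13 antiviral effectors were at least 2-fold higher in GzmB+ Teff in each library. Isg15, whose product is joined to other proteins during infection, was at 1149.6, 1118, 961 and 1073 CPM in GzmB+ Teff of libraries 1 to 4 and 64.6, 64.5, 71.0 and 63.5 CPM in all other cells, a log2 ratio of 4.06 (4.01 to 4.11). Bst2, which encodes tetherin, a protein that holds budding virus at the cell surface, was at 717, 688, 743 and 692 against 131, 158, 165 and 141 CPM. Samhd1, an enzyme that breaks down the nucleotides needed for reverse transcription, was at 651, 548, 605 and 518 against 177, 173, 224 and 170.0 CPM. Zbp1, a sensor of Z-form nucleic acid that can trigger cell death, was at 482, 391, 391 and 414 against 92.952, 80.2, 100.2 and 83.3 CPM. For none of these 4 genes did the groups overlap, and Isg15 showed a far greater ratio than Samhd1, at 1.66 (1.61 to 1.71).

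The greatest ratios lay among effectors that were almost silent elsewhere. Rsad2, which encodes viperin, a maker of a chain-ending nucleotide, was at 183, 139, 172 and 135 against 4.73, 4.12, 5.34 and 3.56 CPM, a log2 ratio of 5.14 (4.98 to 5.31). The Ifit genes encode proteins that bind viral RNA. Ifit1 was at 359, 375, 354 and 359 against 12.6, 12.5, 19.5 and 10.3 CPM and Ifit3 at 420.3, 383, 464 and 383 against 16.3, 14.9, 19.2 and 13.2 CPM, with log2 ratios of 4.82 (4.72 to 4.92) and 4.71 (4.62 to 4.80). Both genes and their neighbour Ifit3b, at 5.05 (4.83 to 5.27), carry a pair of matches to the spaced GAAA blocks in the promoters printed above. Ifit2 (2.62) and Ifit1bl1 (2.37) showed lower ratios than the other Ifit genes, with intervals of 2.50 to 2.74 and 2.26 to 2.47. Mx1 encodes a GTPase that traps viral particles. It stood at 3.66. Cmpk2, a nucleotide kinase encoded beside Rsad2, was at 3.84, and the exonuclease gene Isg20 at 3.27. Copies of the Ifit genes share sequence near the 5′ end, where the reads lie: 60.1% of the 50-base words in the first 500 bases of Ifit3b transcripts also occur in Ifit3, and 50.1% the other way, so their split is uncertain.

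All 5 OAS genes were at least 2-fold higher in each library. OAS enzymes make short oligoadenylates that switch on RNase L, and some OAS-like proteins lack this activity. Oas1a was at 109.6, 86.4, 114 and 75.3 against 17.3, 16.6, 20.6 and 14.7 CPM and Oas3 at 111, 95.7, 94.2 and 91.7 against 13.4, 14.4, 19.7 and 12.9 CPM. Oasl2 was at 79.9, 86.4, 93.1 and 74.5 against 3.48, 4.68, 4.11 and 2.72 CPM and Oasl1 at 76.1, 55.1, 49.2 and 61.0 against 3.99, 3.36, 4.18 and 3.81 CPM. The OAS-like genes showed log2 ratios of 4.53 (4.33 to 4.73) and 4.00 (3.79 to 4.20), above the 2.45 (2.32 to 2.59) of Oas1a and the 2.77 (2.63 to 2.91) of Oas3. Oas2 was low throughout, at 17.3, 19.3, 16.7 and 15.1 against 0.407, 0.94966, 0.753 and 0.217 CPM, and its log2 ratio of 5.13 (4.63 to 5.65) was above those of the OAS-like genes. Of the 50-base words of Oas1a, 85.6% are shared with Oas1g, so counts of Oas1a are uncertain between the copies.

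All 6 genes grouped as sensors were at least 2-fold higher. Ifih1 encodes MDA5 and Dhx58 encodes LGP2, both of which detect double-stranded RNA, and their log2 ratios were 2.63 (2.50 to 2.76) and 2.60 (2.45 to 2.74). The Ifi200 genes encode a family of DNA-binding proteins in 1 cluster on chromosome 1. Ifi203 was at 589, 548, 590.2 and 533 against 237, 238, 283 and 236 CPM and Ifi209 at 375, 327, 374 and 335 against 92.1, 97.1, 131 and 90.6 CPM. Ifi213 was at 224, 205, 257 and 211 against 53.7, 50.5, 70.7 and 44.0 CPM and Ifi206 at 145, 116, 161 and 149 against 43.1, 41.6, 55.3 and 36.9 CPM. Ifi203 was well expressed in all clusters and its log2 ratio, 1.20 (1.15 to 1.25), was the smallest of the family, below the 2.06 (1.98 to 2.15) of Ifi213. Ifi206, Ifi209, Ifi213 and Ifi203 share 22.4% to 50.1% of their 50-base words with other genes.

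Among the transcription factors and feedback genes, Irf7, Stat2 and Usp18 were at least 2-fold higher in each library and Irf9 was not. Irf7, the factor that amplifies interferon production, was at 472, 386, 439 and 478 against 70.6, 62.1, 76.8 and 69.1 CPM, a log2 ratio of 2.69 (2.63 to 2.75). Usp18, which removes ISG15 from proteins and shuts off the receptor by binding IFNAR2, was at 330.0, 246, 250.1 and 316 against 27.6, 22.5, 28.1 and 31.3 CPM, a log2 ratio of 3.39 (3.30 to 3.47). Stat2 and Irf9 encode subunits of ISGF3. Stat2 was at 81.7, 52.5, 72.2 and 61.8 against 20.3, 13.7, 25.5 and 14.5 CPM and Irf9 at 107, 87.0, 104 and 90.4 against 50.2, 41.2, 60.7 and 42.0 CPM. The ratio of Irf9, 1.01 (0.88 to 1.13), was thus smaller than that of Stat2, 1.87 (1.71 to 2.02), although Irf9 too was higher in GzmB+ Teff in every library.

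The 5 genes of the ubiquitin and ADP-ribosylation group were at least 2-fold higher with modest ratios. PARP9 and the ubiquitin ligase DTX3L form a complex that modifies histones, and PARP14 adds ADP-ribose to proteins. Parp9 was at 153, 134, 136 and 129.7 against 41.4, 32.5, 48.8 and 33.9 CPM and Dtx3l at 122, 93.7, 143 and 109.7 against 49.2, 40.8, 66.0 and 40.9 CPM. Parp14 was at 222, 165, 181 and 134 against 64.1, 48.7, 81.020 and 45.0 CPM. Their log2 ratios were 1.83 (1.72 to 1.94), 1.26 (1.15 to 1.37) and 1.55 (1.46 to 1.64). Trim30a, which encodes a ligase that limits TLR signalling, was at 269, 256, 236 and 221 against 64.3, 62.1, 85.1 and 61.3 CPM, and Herc6, the mouse ligase for ISG15, had a log2 ratio of 2.10 (1.99 to 2.21).

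Cxcl10 encodes a chemokine that draws cells bearing CXCR3. It was at 262, 295, 75.3 and 225 CPM in GzmB+ Teff of libraries 1 to 4 and 8.07, 7.98, 6.64 and 13.2 CPM in all other cells, a log2 ratio of 4.59 (4.47 to 4.71). Library 3 was the lowest in GzmB+ Teff, far below the other libraries. The Schlafen gene Slfn1, linked to T cell quiescence, was at 365, 333, 447 and 392 against 91.1, 118, 149 and 103 CPM, and Slfn5 at 223, 207, 159 and 140.4 against 12.003, 15.6, 16.6 and 12.3 CPM. Slfn5 had a log2 ratio of 3.75 (3.63 to 3.86) and Slfn1 one of 1.82 (1.76 to 1.88). Slfn1 was also well expressed in Tn, at 148 CPM.

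Of the 7 others, 5 were at least 2-fold higher in each library, and Epsti1 and Ifi44 were not. Ifi27l2a encodes a small protein of the mitochondrial membrane family of IFI27. It was at 1459.8, 1841, 1921 and 1608 against 700.4, 779.8, 668 and 789.6 CPM, a log2 ratio of 1.18 (1.15 to 1.21). Epsti1, a gene first found in epithelial and stromal cell contact, was at 599, 527, 661 and 556 against 317, 340.1, 394 and 315 CPM, and its log2 ratio of 0.80 (0.75 to 0.84) was the smallest of all. Ifi35 was at 249.48, 219.9, 198 and 254 against 92.3, 92.0, 86.4 and 94.8 CPM and Phf11b at 287, 293, 258 and 302 against 80.5, 79.5, 88.9 and 82.1 CPM. Rtp4, a chaperone of membrane receptors, and Xaf1, a partner of the apoptosis inhibitor XIAP, had log2 ratios of 2.53 (2.46 to 2.61) and 1.95 (1.86 to 2.04). Ifi44 was rare, at 11.963 CPM in GzmB+ Teff and 0.774 CPM in all other cells, so the 10 CPM added kept it under the 2-fold limit in some libraries.

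**Figure D2:**
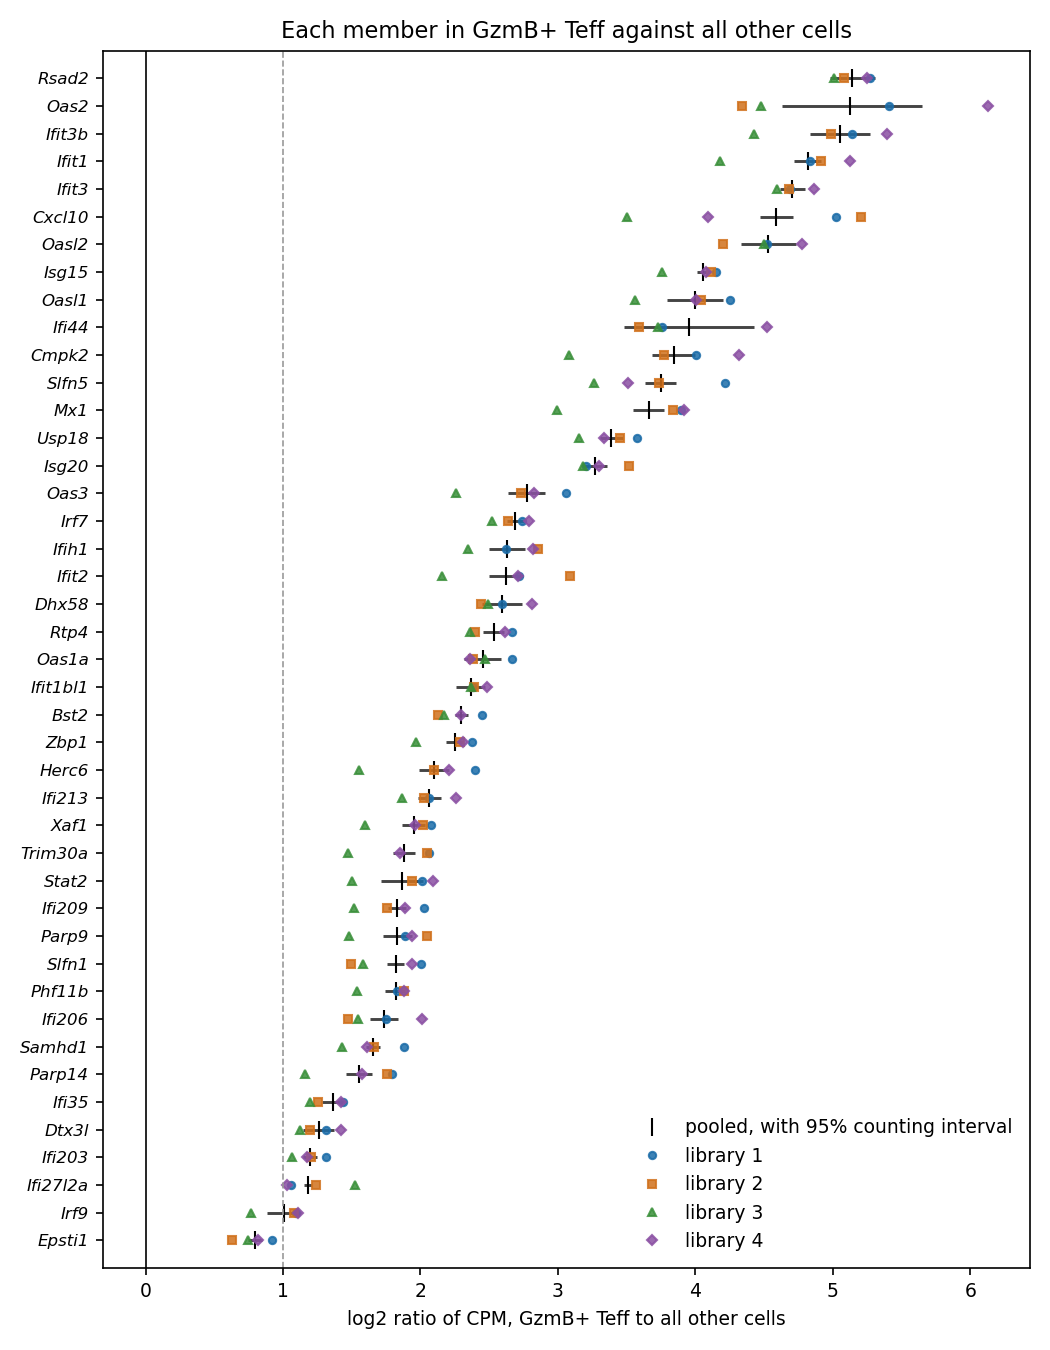
Log2 ratio of CPM of GzmB+ Teff to all other cells (x axis) for each of the 43 members (y axis, ordered by ratio), with nothing added. Vertical ticks are pooled values with 95% counting intervals and points are libraries 1 to 4. The dashed line marks 2-fold and the solid line no difference. Ratios run from 0.80 for Epsti1 to 5.14 for Rsad2, and every point lies to the right of 0.

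Single cells were compared after drawing 2500 UMIs from each, so that depth did not differ between cells. The median cell of GzmB+ Teff held 28.5 member UMIs, its 10th percentile was 14 and its 90th percentile 63.9. The median was 5 in Tcm, 6 in cycling cells and Tn, 8 in transitory Teff, TIGIT+ Teff and GzmA+ Tex, and 7 in TIM-3+ Tex. At least 10 member UMIs were found in 96.6% of GzmB+ Teff (94.9995 to 97.8, Clopper-Pearson) and in 24.8% of all other cells (24.0 to 25.6). Without the draw these shares were 100% and 86.8%, and 1202 of all cells lay at 9 or 10 UMIs. Outside GzmB+ Teff, the share ran from 11.9% in Tcm and 13.9% in Tn to 40.1% in transitory Teff and 43.9% in TIGIT+ Teff. At least 20 member UMIs were found in 74.0% of GzmB+ Teff and 3.57% of all other cells. The higher level of GzmB+ Teff was therefore spread over most of its cells.

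Cells with many member UMIs were not limited to GzmB+ Teff. Of the 935 cells with at least 20 member UMIs among 2500, 542 (58.0%) were GzmB+ Teff, 138 transitory Teff, 106 cycling cells, 66 TIGIT+ Teff, 33 GzmA+ Tex and 26 TIM-3+ Tex, whereas 17 were Tcm and 7 Tn. Part of these UMIs were of Ifi27l2a, at a mean of 3.17 in transitory Teff, 2.49 in cycling cells and 0.962 in Tn. The other members had means of 6.38, 5.64 and 5.17, and the cells were not counted again without Ifi27l2a. In cycling cells the median cell held 6 member UMIs, but 1% of cells held 40 or more and the highest held 98. Isg15 was detected among the 2500 UMIs of 78.6% of GzmB+ Teff and 11.4% of all other cells, with 5.07% in Tn, and Rsad2 in 26.4% and 0.844%. Without the draw, at a median of 7827.5 UMIs per cell in GzmB+ Teff and 7834 in Tn, Isg15 was detected in 94.7% of GzmB+ Teff and 13.5% of Tn. Ifi27l2a was detected in 75.7% of GzmB+ Teff but also in 76.6% of transitory Teff, so detection of this gene did not set the cluster apart. A median of 16 members was detected in a GzmB+ Teff cell and 4 to 6 in cells of the other clusters.

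**Figure D3:**
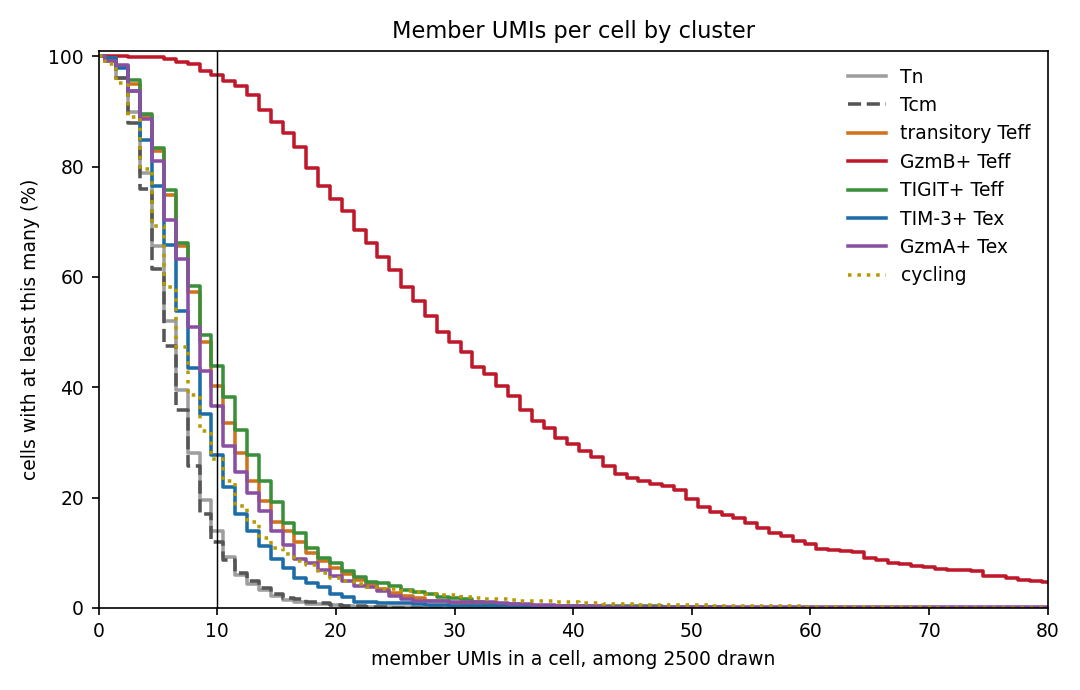
Percent of cells (y axis) with at least a given number of member UMIs among 2500 drawn from each cell (x axis), with 1 line for each of 8 clusters. The vertical line marks 10 UMIs, which 96.6% of GzmB+ Teff reach, against 11.9% to 43.9% in the other clusters.

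The other effector and exhausted clusters were compared with Tn to ask how far the response reached beyond GzmB+ Teff. Transitory Teff, TIGIT+ Teff, TIM-3+ Tex and GzmA+ Tex together had a summed log2 ratio to Tn of 0.55 (0.54 to 0.57), and 0.49, 0.50, 0.90 and 0.51 in libraries 1 to 4. Of the 43 members, 31 were higher in each library, against 36.3% of all genes, and 3 were at least 2-fold higher, against 1.12%. Among the 38 members with at least 10 CPM, 29 were higher, against 57.6% of such genes, and the median log2 ratio with 10 CPM added was 0.50 over the 43 members and 0.24 over genes with at least 10 CPM. The 3 members at least 2-fold higher were Isg15, Isg20 and Ifi27l2a, with log2 ratios of 1.75 (1.56 to 1.94), 2.01 (1.73 to 2.30) and 1.51 (1.47 to 1.56). Among genes low in Tn, Cxcl10 went from 1.47 CPM in Tn to 16.9 CPM in transitory Teff and 15.8 CPM in GzmA+ Tex. Without Ifi27l2a, the member with the most UMIs, the summed log2 ratio was 0.28, so much of the difference from Tn came from this gene. TIM-3+ Tex without Ifi27l2a were at 2053 CPM, close to the 2037 CPM of Tn.

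A few members ran the other way. Usp18 and Epsti1 were lower in these clusters than in Tn in each library, against 7.55% of all genes and 10.3% of those with at least 10 CPM, with log2 ratios of -0.72 (-0.91 to -0.52) and -0.53 (-0.58 to -0.48). Usp18 was at 29.6 CPM in Tn, 49.5 CPM in Tcm and 13.1 CPM in transitory Teff. Epsti1 was at 431 and 428 CPM in Tn and Tcm and at 217 CPM in TIM-3+ Tex. Slfn1 was at 148 CPM in Tn and 72.9 CPM in cycling cells. These 3 genes were thus lower in dividing or exhausted cells than in naive cells and yet highest of all in GzmB+ Teff.

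Ifi27l2a had a pattern of its own. It was at 185 CPM in Tcm, 375 in Tn, 754 in TIGIT+ Teff and 965 in cycling cells. Higher still were GzmA+ Tex at 1051, TIM-3+ Tex at 1079 and transitory Teff at 1224 CPM, with 1671 in GzmB+ Teff. In Tcm the libraries gave 159.5, 261, 207 and 177 CPM and in Tn 367, 429, 330.2 and 376 CPM, so the groups did not overlap. The other 42 members together were at 2037 CPM in Tn, 2157 CPM in Tcm and, in transitory Teff, 2439.9 CPM.

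Cycling cells and Tcm were set against Tn as well. In cycling cells the summed log2 ratio was 0.37 (0.35 to 0.39), with 23 members higher in each library against 33.4% of all genes and 6 lower against 10.1%. Leaving out Ifi27l2a, the summed level was 2162 CPM in cycling cells and 2037 CPM in Tn, so most of the difference came from this gene. Of the 38 members with at least 10 CPM, 22 were higher against 55.6% of such genes and 5 lower against 13.2%, and the median log2 ratio with 10 CPM added was 0.30 over the members and 0.28 over such genes. In Tcm the members did not lean in one direction. The summed log2 ratio of Tcm to Tn was -0.04 (-0.06 to -0.02), with -0.06, 0.02, 0.09 and -0.09 in libraries 1 to 4, and without Ifi27l2a it was 0.083. In each library 15 members were higher in Tcm, against 21.7% of all genes, and 8 were lower, against 7.82%. Among members with at least 10 CPM, 15 were higher against 38.1% of such genes and 7 lower against 11.5%. Zbp1, Isg15 and Usp18 were higher, with log2 ratios of 0.88 (0.74 to 1.02), 0.84 (0.64 to 1.05) and 0.74 (0.56 to 0.92). Ifi27l2a, at -1.01 (-1.08 to -0.95), Oas3, at -0.59 (-0.86 to -0.33), and Samhd1, at -0.36 (-0.43 to -0.29), were lower.

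Outside GzmB+ Teff, 25 members had their highest pooled level in TIGIT+ Teff, 11 in GzmA+ Tex and the other 7 elsewhere. This was against 35.8% and 11% of all genes for TIGIT+ Teff and GzmA+ Tex. Of the 38 members with at least 10 CPM these were 24 and 7, against 46.8% and 2.76% of such genes. Between TIGIT+ Teff and transitory Teff, 17 members were higher in TIGIT+ Teff in each library, against 24% of all genes, and 3 were lower, against 7.51%. Of the 38 members with at least 10 CPM, 16 were higher against 43.3% of such genes and 3 lower against 14.2%, and the median log2 ratio with 10 CPM added was 0.28 over the members and 0.25 over such genes. Parp14 was at 134, 139, 185 and 90.6 CPM in TIGIT+ Teff of libraries 1 to 4 and 61.4, 49.4, 62.6 and 45.5 CPM in transitory Teff, a log2 ratio of 1.47 (1.32 to 1.61). Stat2, Mx1, Herc6 and Ifih1 had log2 ratios of 1.28, 1.24, 1.20 and 0.99. Bst2 (-0.38) and Ifi27l2a (-0.70) lay below 0, and Epsti1 was lower in each library although pooled it stood at 0.07. Pooled ratios weight the libraries unequally here, since library 3 held 271 of 816 TIGIT+ Teff and 198 of 1891 transitory Teff. The part of this in the pooled ratios was not tested. Over 7602 genes with at least 10 CPM, the ratio of TIGIT+ Teff to transitory Teff followed the length of the gene on the chromosome (Spearman's rho across genes 0.60), and over the 43 members rho was 0.46. The part of gene length in these member ratios was not tested. TIM-3+ Tex were below transitory Teff, with a summed log2 ratio of -0.23 (-0.25 to -0.21), with 16 members lower in each library against 8.53% of all genes and 0 higher against 9.67%. Among members with at least 10 CPM, 15 were lower against 12.9% of such genes and 0 higher against 17.5%.

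**Figure D4:**
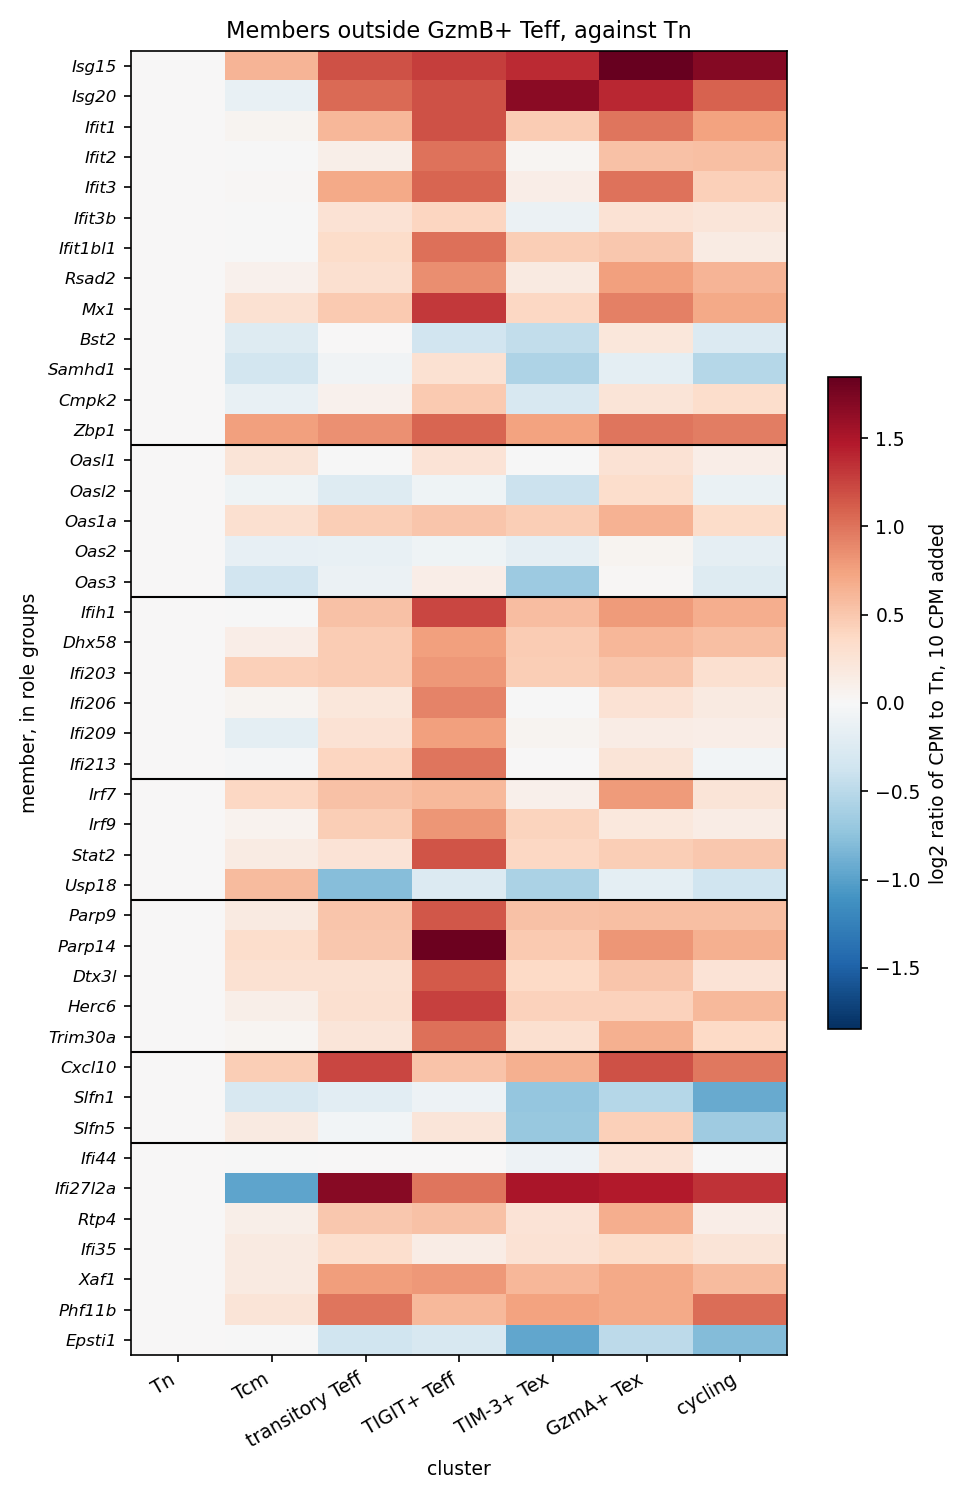
Log2 ratio to Tn of CPM with 10 CPM added (colour) for each member (rows, in role groups parted by lines) in the 7 clusters other than GzmB+ Teff (columns). Red is above Tn and blue below. Isg15, Isg20 and Ifi27l2a are red in the effector and exhausted clusters. Most genes of the sensor and ubiquitin groups are reddest in TIGIT+ Teff, and Usp18, Slfn1 and Epsti1 are blue in TIM-3+ Tex.

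Libraries were set side by side within each cluster, with no treatment assigned. In 5 clusters library 3 gave the highest summed level, by the least in Tcm (2281, 2489, 2520.1 and 2297 CPM in libraries 1 to 4). The other 4 were transitory Teff (3537, 3677, 4338 and 3565 CPM), TIGIT+ Teff (3477, 3395, 4729 and 3593), GzmA+ Tex (3578, 3215, 4274 and 3751) and cycling cells (3009.9, 2858, 3648 and 3111). Of the 43 members, 32 were highest in library 3 in transitory Teff, against 22.7% of all genes, 30 in TIGIT+ Teff, against 26.3%, 29 in GzmA+ Tex, against 26%, and 36 in cycling cells, against 35.3%. In Tcm 19 members were highest in library 3, against 24.1%. In Tn 8 members were highest in library 3, against 16.1%, and in GzmB+ Teff 14, against 20.4%. The median cell held 10 member UMIs in library 3 and 8 in each other library in transitory Teff, and 11 against 7 to 8 in TIGIT+ Teff. Library 3 held 198 of the 1891 transitory Teff, 271 of the 816 TIGIT+ Teff and 31 of the 1056 TIM-3+ Tex. With 1 library per treatment, library and treatment cannot be told apart.

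Clonotypes that appear in several clusters allow the same T cell clone to be compared with itself. A clonotype is here the same TCR genes and CDR3 nucleotide sequences within a library. GzmB+ Teff and transitory Teff shared 72 clonotypes, with 120 and 708 cells. Within them the summed level was 17068 CPM in GzmB+ Teff and 3788 CPM in transitory Teff, a log2 ratio of 2.17 (2.14 to 2.21), and 72 of 72 clonotypes were higher in GzmB+ Teff. In libraries 1 to 4 GzmB+ Teff were at 13845, 16751, 16369 and 19275 CPM and transitory Teff at 4045, 3501, 4696 and 3583 CPM. The same held for the 47 clonotypes shared with cycling cells (log2 ratio 2.54), the 35 shared with TIM-3+ Tex (2.35), the 27 shared with GzmA+ Tex (1.91) and the 26 shared with TIGIT+ Teff (1.89). Against transitory Teff as whole clusters, 34 members were at least 2-fold higher in each library (0.473% of all genes) and 43 were higher (6.84%). Cells of 1 clone thus lay on either side of the difference, in clusters set by the same transcripts. With the Leiden cluster number in place of the cluster name, the ratio to transitory Teff was 1.05.

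Names and numbers of clusters disagreed in 837 cells. The number of GzmB+ Teff was carried by 205 cells named transitory Teff, whose summed level was 2877 CPM, with 3143, 2475, 3414 and 2844 CPM in libraries 1 to 4. The 1324 transitory Teff whose number matched were at 3991 CPM and the 681 GzmB+ Teff whose number matched at 12267 CPM. By these genes the 205 cells lay nearer to their name than to their number, though below the matched transitory Teff. Other cells differed. The 287 named transitory Teff with the number of TIM-3+ Tex were at 3279 CPM, nearer to matched TIM-3+ Tex (3098). The 66 with the number of Tn were at 2989 CPM, nearer to matched Tn (2404). The 132 Tcm with the number of Tn were at 2153 CPM, below matched Tcm (2355) and Tn.

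GzmB+ Teff themselves were split by the size of the clonotype. With a clonotype seen in 1 cell they numbered 361, in clonotypes of 2 or more cells 141, and 230 had no clonotype. Their summed levels were 12443, 16313 and 10693 CPM. In libraries 1 to 4 the expanded clonotypes stood at 14304, 17029, 15922 and 17019 CPM and the single cells at 13831, 12672, 11503 and 11971 CPM. Expanded clonotypes were higher in each library, by a pooled log2 ratio of 0.39 (0.36 to 0.42), with 14 members higher in each library against 8.52% of all genes. All 14 were among the 38 members with at least 10 CPM, where 18.2% of such genes were higher. Much of this was Ifi27l2a, at 3207 against 1211 CPM. Without it the log2 ratio was 0.22 (0.19 to 0.25) and library 1 turned, at 11872 CPM in expanded clonotypes and 12939 CPM in single cells.

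Single members within GzmB+ Teff differed in direction between expanded and single clonotypes. Ifih1, Ifit1bl1 and Rsad2 were higher in cells of expanded clonotypes in each library, with log2 ratios of 0.89, 0.99 and 0.76. Cxcl10, Slfn5, Oasl1, Oasl2 and Ifi44 were lower in each library, against 5.79% of all genes. Among the 38 members with at least 10 CPM only Cxcl10 and Slfn5 were lower, a share not above the 9.59% of such genes. For Cxcl10 the levels were 104 and 241 CPM, and the pooled interval of Oasl1 (-0.78 to 0.16) held 0. The single cells carried more transcripts of the naive cell genes Il7r, Ccr7, Dapl1 and Lef1, at 514 against 84.7 CPM in sum and in the same direction in each library, where Tn were at 1052 and all GzmB+ Teff at 348 CPM. Macrophage genes summed to 30.5 CPM in single cells and 91.1 CPM in expanded clonotypes. The single cells also carried fewer transcripts of Gzmb, at 369.8 against 1056 CPM, and of Pdcd1, which encodes PD-1, at 31.5 against 335 CPM. Their median cell held 7733 UMIs, against 4766 in expanded clonotypes, and among 2500 UMIs 28.0 against 38.0 member UMIs. The part of depth and of these genes in the difference was not tested. Member transcripts were thus abundant both in single cells and in cells of expanded clonotypes.

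**Figure D5:**
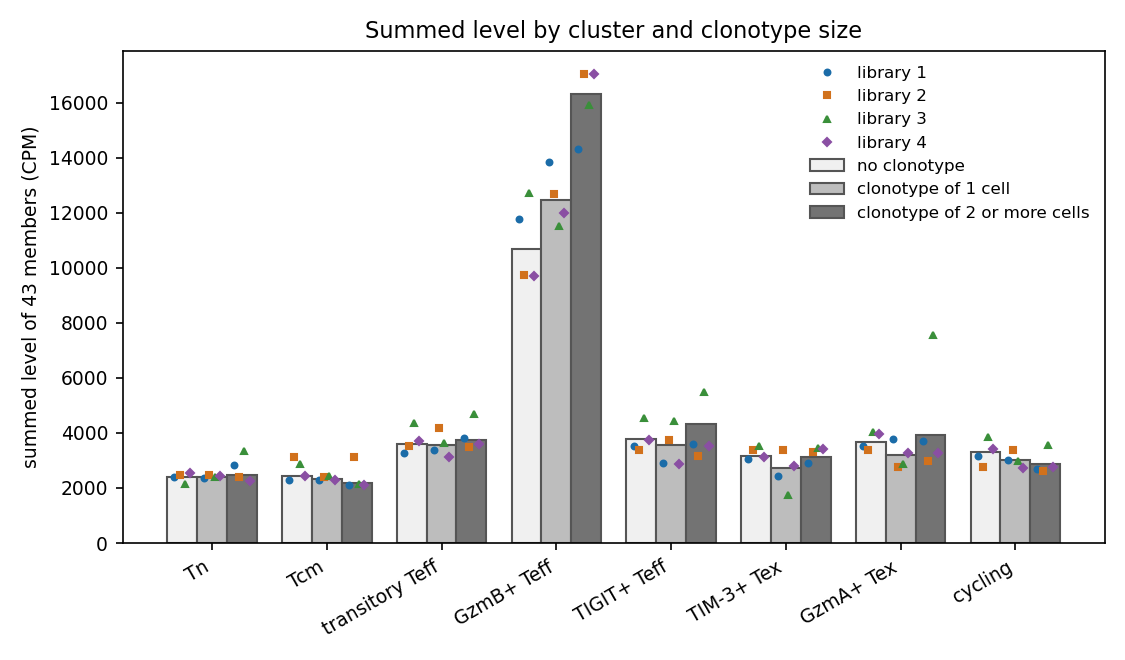
Summed level of the 43 members in CPM (y axis, from 0) in each cluster (x axis), split by clonotype: none called, seen in 1 cell, or seen in 2 or more cells of a library. Bars are all libraries pooled and points are libraries 1 to 4. In GzmB+ Teff the bars stand at 10693, 12443 and 16313 CPM, and the tallest bar of any other cluster is at 4334 CPM, in TIGIT+ Teff.

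The genes around the response were read from lists of receptors, signalling genes, ligands, sensors and regulators that are not among the 43. Ifnar1 and Ifnar2, the subunits of the receptor, were at 52.9 and 85.7 CPM in GzmB+ Teff, with log2 ratios to all other cells of -0.11 (-0.27 to 0.05) and -0.14 (-0.27 to -0.02). The kinase genes Jak1 and Tyk2 were at 456 and 30.1 CPM, with log2 ratios of -0.10 (-0.16 to -0.05) and -0.15 (-0.37 to 0.06). These 4 genes did not pass the 2-fold limit, which 0.473% of all genes passed in each library.

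Of 8 negative regulators, 0 were at least 2-fold higher in each library, against 0.473% of all genes, so this count is near the share over all genes. Socs1, which blocks JAK kinases, was at 329, 283, 203 and 293 CPM in GzmB+ Teff and 122, 119, 104 and 138 CPM in all other cells, and missed the limit in library 3 alone. Like Usp18 it was higher in Tcm (212 CPM) and Tn (136 CPM) than in cycling cells (65.5 CPM). Of 10 sensing genes 0 passed, which is also near the 0.473% of all genes. Ddx58, which encodes the RNA sensor RIG-I, was at 118 CPM in TIGIT+ Teff and 176 CPM in GzmB+ Teff, and Tlr7 at 11.8 CPM against at most 3.63 CPM elsewhere. Of 19 interferon ligand genes, 2 were in the table. Ifng, the type II interferon gene, was at 207 CPM in TIGIT+ Teff, above the 121 CPM of GzmB+ Teff. This was not particular to TIGIT+ Teff. The 2 ligand genes, the lower of them at 0.066 CPM over all cells, summed to 207 CPM in TIM-3+ Tex, 144 in GzmA+ Tex and 138 in transitory Teff.

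Transcripts of other cell types were read in the same clusters, since myeloid cells and plasmacytoid dendritic cells also use these genes. A list of 12 macrophage genes summed to 58.3 CPM in GzmB+ Teff (49.2 to 65.9 over libraries), 65.9 in transitory Teff, 13.0 in Tn and 2003 in GzmA+ Tex (1448 to 2238). In GzmB+ Teff Adgre1 was at 0, and Csf1r at 0.153 CPM, so other genes of the list gave nearly all of this sum. The lowest gene of the list was at 0.830 CPM over all cells. The 5 genes of plasmacytoid dendritic cells that are no member summed to 76.2 CPM in GzmB+ Teff (39.8 to 99.05 over libraries), 18.0 in Tn and 88.7 in TIGIT+ Teff. Of this, Irf8, a factor that T cells also express, gave 74.2 CPM in GzmB+ Teff, and Siglech and Klk1 were at 0 there. The lowest gene of this list was at 0.019 CPM over all cells, and for genes this low a 0 says little. The part of these transcripts in the member levels was not tested. When all cells with a UMI of a macrophage or plasma cell gene were left out, the log2 ratio of GzmB+ Teff to all other cells was 2.22. In the cells left, 35 members were at least 2-fold higher in each library, and the share over all genes was not computed for them. Of GzmB+ Teff, 23.2% held a UMI of the macrophage list and 49.3% a UMI of the plasma cell list. In GzmA+ Tex, 96.8% of cells held a macrophage UMI, and the part of these transcripts in its member levels was not tested. A list of 4 cycling genes summed to 74.5 CPM in GzmB+ Teff and 2422 CPM in cycling cells.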

How the data were processed

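CD8+ T cells from BM were profiled with the 10x Genomics 5′ assay in 4 libraries. Per the labels, the submitters' processing notes name Cell Ranger 7.00 and mm10. The authors downsampled reads to a similar depth across libraries and deposited a table of UMI counts that were not normalized (17561 genes, 11754 cells). They also deposited the mitochondrial share of each cell as a fraction, cluster names and Leiden numbers from Monocle3, and TCR chains. Deposited cells held 2502 to 24983 UMIs and at most 14.5% mitochondrial UMIs, and by the methods also had to express Cd3e/g and Cd8a. Doublet removal is not given in the sources used here, and none was done.

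Members and lists were chosen with earlier results of these data known. Genes were named from GENCODE M21, which gave a symbol to 17549 genes. UMIs were summed over cells and given as CPM. Ratios have nothing added unless stated, and calls used 10 CPM added and 2-fold in each library. Single cells were thinned to 2500 UMIs (seed 7). Intervals are at the 95% level. Library numbers are not tied to treatments in the labels, so with 1 library per group no test and no comparison of treatments was made. Named genes are up to 4 members per role group with the highest CPM over all cells, any with another leading cluster, and the members whose promoters are printed. Others named were chosen after their values were seen. Alternatives changed the weights, depth, cluster labels, cells, pseudocount, fold, cutoffs and clonotype definition. Some results are not reported here. Scripts were tested on simulated data. The versions were Python 3.11.15, pandas 2.3.3, numpy 2.4.6, matplotlib 3.10.9 and scipy 1.17.1.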

Additional observations from a re-analysis of the deposited data

How the results depend on the processing

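The summed log2 ratio of GzmB+ Teff to all other cells, 2.02, was 2.17 with cells weighted equally, 2.18 with cells thinned to 2500 UMIs, 1.68 with Leiden numbers in place of names, 2.003 with libraries weighted equally, 2.22 without cells with a macrophage or plasma cell UMI, 2.21 without Ifi27l2a, and 1.98 to 2.05 with each library left out in turn. The ratio of the other Teff and Tex clusters to Tn, 0.55, was in the same order 0.59, 0.58, 0.61, 0.61, 0.62, 0.28 and 0.49 to 0.60. The ratio of Tcm to Tn, -0.04, was -0.0086 with libraries weighted equally, -0.067 to -0.013 with each library left out, and turned to 0.083 without Ifi27l2a. The share of GzmB+ Teff with at least 10 member UMIs, 96.6%, was 99.9% at 5 UMIs, 88.1% at 15, 100% unthinned, 79.8% with Leiden numbers, 98.3% without cells with a macrophage or plasma cell UMI, 93.03% without Ifi27l2a and 96.3% to 97.4% with each library left out. For all other cells, 24.8%, it was 71.0% at 5 UMIs, 8.57% at 15, 86.8% unthinned, 25.6% without those cells, 12.5% without Ifi27l2a and 23.3% to 25.9% with each library left out. The ratio within clonotypes shared with transitory Teff, 2.17, was 2.13 with the TRB CDR3 alone, 2.24 thinned, 1.05 with Leiden numbers and 1.98 to 2.28 with each library left out. Where an alternative moved a value, the cause was not tested. The count of 40 members stayed within 1.5 times (27 to 43), and the share over all genes was not computed under these alternatives. Of 473 ratios of single members under alternatives, 473 were above 0 and 454 at least 2-fold. Between treatments, no paired analysis was possible because each group was 1 library. Clusters were compared within each library, and no paired test over the 4 libraries was run, since the clusters were made from the same values. Intervals cover counting error only, and members with few UMIs, such as Ifi44 and Oas2, are the least certain.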

Other observations

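Genes induced by interferon that are not among the 43 were read in the same clusters. Of 45 further genes known as induced by type I interferon, 16 were at least 2-fold higher in GzmB+ Teff than in all other cells in each library, against 0.473% of all genes, and their median log2 ratio with 10 CPM added was 0.96. Eif2ak2, which encodes the kinase PKR, was at 167, 132, 122 and 135 CPM in GzmB+ Teff and 40.2, 27.9, 39.7 and 27.1 CPM in all other cells. Ly6a, which encodes the surface antigen Sca-1, was at 1007, 952, 1188 and 727 CPM against 271, 268, 522 and 153 CPM. Ifitm3, a block to viral entry, was at 44.9 CPM in GzmB+ Teff and 62.9 CPM in GzmA+ Tex. Cd274, which encodes PD-L1, was at 46.8 CPM in GzmB+ Teff and 8.62 CPM in Tn.

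Genes that interferon gamma is known to induce more strongly were read in the same way. Of 21 such genes, 10 were at least 2-fold higher in GzmB+ Teff in each library, against 0.473% of all genes. Their median log2 ratio with 10 CPM added was 1.17. Igtp and Irgm1, GTPases that act on pathogen vacuoles, were at 307 and 186 CPM in GzmB+ Teff and 66.9 and 43.5 CPM in Tn. Gbp2 was at 166, 185, 222 and 140.4 CPM against 42.5, 39.5, 55.4 and 35.7 CPM. The class II regulator Ciita, at 0.307 CPM, and Cxcl9, at 0.613 CPM, were at or near 0 in GzmB+ Teff. The immunoproteasome gene Psmb8 was at 1229.9 CPM against 755 CPM in Tn.

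Within clusters, the correlation between members across cells differed. The members other than Ifi27l2a were divided into sets of 22 and 20, and their summed UMIs among 2500 were correlated across cells of a cluster, as a description. Pearson's r was 0.80 in GzmB+ Teff, 0.66 in cycling cells, 0.55 in TIGIT+ Teff, 0.50 in GzmA+ Tex, 0.32 in transitory Teff, 0.24 in Tcm, 0.22 in TIM-3+ Tex and 0.12 in Tn. Ifi27l2a followed the other members weakly, with r between 0.09 in TIGIT+ Teff and 0.25 in GzmA+ Tex. Over the 28 sums of a cluster and a library outside GzmB+ Teff, Mx1 (r = 0.90), Parp9 (0.89) and Ifit1 (0.87) were closest to the mean of the other members, and Usp18 (-0.17) and Epsti1 (-0.05) farthest from it. These points share cells, depth and clustering.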
